A study of Mus musculus with 32 samples.

Results

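The fibroblast growth factor receptor family was read in the forebrain (Fb) and midbrain (Mb) of mouse embryos lacking type II cadherins (Cdh) and of wild type (WT) embryos. Its 5 members, Fgfr1, Fgfr2, Fgfr3, Fgfr4 and Fgfrl1, were picked by their Ensembl identifiers, without use of their values, from the 48576 identifiers of the files. RNA-seq had been run on 32 libraries of B6C3F1 embryos at E9.5, 16 from the Fb and 16 from the Mb. Each tissue was represented by 6 WT libraries, 4 from Cdh6/8/11 triple knockout embryos with exencephaly, an open cranial neural tube (TKO_Ex), 3 from double knockout embryos with exencephaly labelled Cdh8 and Cdh11 (DKO_Ex), and 3 from double knockout embryos with a cranial defect (DKO_CD). The labels call DKO_CD a Cdh6 and Cdh8 knockout, whereas the study's methods describe Cdh8/11 embryos without exencephaly and with an elongated Mb. The mutations are small CRISPR/Cas9 deletions in the exon with the start codon of each Cdh gene, carried in every cell. Mutants came from matings of triple heterozygotes and WT embryos from separate WT matings, so the knockouts cannot be told apart from a difference between the crosses. In 12 of the files of the double knockouts the column heading names the opposite group from the record that lists the file, and the headings were followed. All 4 genotype groups are whole dissected tissue, in which fewer cells of a type and less RNA per cell cannot be told apart.

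FGF receptors are receptor tyrosine kinases of the cell surface. FGF ligands bind them together with heparan sulphate, the paired receptors phosphorylate each other, and adaptors such as Frs2 pass the signal to the Ras and MAP kinase cascade. Fgfr1, Fgfr2, Fgfr3 and Fgfr4 carry the kinase, whereas Fgfrl1 binds ligand but lacks the kinase domain. In the early brain Fgf8 from the anterior neural ridge and from the isthmus, the border between Mb and hindbrain, is a well known organizing signal, and Fgfr1 is its best known receptor in the Mb.

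The labels were first compared with marker and target genes. Markers of the Mb and isthmus summed to 60 to 233 FPKM (fragments per kilobase of transcript, scaled to the mapped fragments of the library) in the 6 WT Mb libraries and to 13.1 to 17.2 FPKM in the 6 WT Fb libraries, and 7 of the 8 markers were higher in the Mb. Of 13 forebrain and eye field markers, 12 were lower in the WT Mb, so that both tissues carried the markers of their labels. The WT Mb library numbered 5 stood apart. It had the lowest Mb marker sum, 60 FPKM, against 120 to 233 FPKM in the other WT Mb libraries, and the highest forebrain marker sum of the WT Mb, 23.5 FPKM. Among the Fb libraries, TKO_Ex 4 and DKO_CD 2 had the lowest forebrain marker sums (190 and 187 FPKM) and the highest surface ectoderm sums (345 and 321 FPKM). In WT the surface ectoderm markers summed to 126 ± 27.6 FPKM in the Fb and to 42 ± 10.6 FPKM in the Mb (SD, n = 6 each). Cdh6 measured 0.345 to 0.388 FPKM in 3 TKO_Ex Mb libraries but 3.1 FPKM in TKO_Ex 3 as labelled, within the WT range of 1.04 to 3.55 FPKM. The Fb library of that number was also within the WT Fb range (3.74 against 2.04 to 4 FPKM). Cdh8 and Cdh11 transcripts remained in all mutant groups, and small deletions need not remove the RNA. In the TKO_Ex Mb, Cdh11 was at 14.5 to 16.6 FPKM, below the 17.9 to 28.7 FPKM of the WT Mb. Cdh8 was there at 0.851 to 2.32 FPKM, against 1.14 (WT Mb 1) to 10.1 FPKM in the WT Mb. Mean Cdh8 in the Mb was 4.93 FPKM in WT, 1.49 in TKO_Ex, 1.93 in DKO_Ex and 1.24 in DKO_CD. In the DKO_CD Mb, Cdh6 was at 1.29 to 2.11 FPKM, within the WT range and not as low as in 3 of the TKO_Ex Mb libraries. In the DKO_CD Fb it was at 1.72 to 3.43 FPKM, against 0.572 to 3.74 FPKM in the TKO_Ex Fb. DKO_CD Fb 2, at 1.72 FPKM, was below the WT Fb range and below TKO_Ex Fb 1 at 1.84 FPKM. In the DKO_Ex Mb Cdh6 was at 1.86 to 3.12 FPKM. Cdh11 was at 16.6 to 27.2 FPKM in the DKO_CD Mb and at 17.6 to 18.7 FPKM in the DKO_Ex Mb. In the Fb it was at 12.7 to 25.3 FPKM in DKO_CD and at 17.1 to 18.7 FPKM in DKO_Ex, against 19.5 to 25.3 FPKM in WT. Which genes the DKO_CD libraries lack was not tested. The 5 libraries that stand apart stayed in their labelled groups, and the main values that rest on them are also given without them. Not counted among them were DKO_CD Mb 1 and DKO_Ex Mb 2, whose forebrain sums (29.5 and 28.6 FPKM) exceeded that of WT Mb 5. DKO_CD Mb 2, with the highest surface ectoderm and cranial mesenchyme sums of the Mb (111 and 294 FPKM), was not counted either.

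Among the tested receptors, Fgfr1 varied least within groups by the median over groups, and Fgfr2 and Fgfr3 had higher means in the Mb than in the Fb. Fgfr1 averaged 37.8 ± 5.83 FPKM in the Fb and 37.5 ± 5.26 FPKM in the Mb (SD, n = 16 each, all genotypes). Fgfr2 averaged 27.2 ± 8.1 FPKM in the Fb and 42 ± 14 FPKM in the Mb. Fgfr3 averaged 8.34 ± 3.64 FPKM in the Fb and 19.9 ± 5.91 FPKM in the Mb. Both had higher means in the Mb, with overlap between the 16 Fb and 16 Mb libraries, as the plot of receptor levels by group shows. Fgfrl1, the receptor without a kinase, averaged 17.7 ± 5.93 FPKM in the Fb and 16.6 ± 6.31 FPKM in the Mb. Fgfr4, which is best known from liver and muscle, was listed at 0 in 20 of the 32 libraries, and its highest value was 0.266 FPKM in TKO_Ex Mb 4. It stayed under the minimum mean of 1 FPKM in each comparison and was not tested, which left 4 of the 5 members in the tests. Within groups Fgfr1 had the lowest median coefficient of variation, 12.8% over the 8 groups (6.08% to 25.6%). The median coefficient was 29% for Fgfr2, 31.1% for Fgfrl1 and 34% for Fgfr3. In the Fb of all mutant groups and in the DKO_Ex Mb, another receptor had a lower coefficient than Fgfr1.

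**Figure D1:**
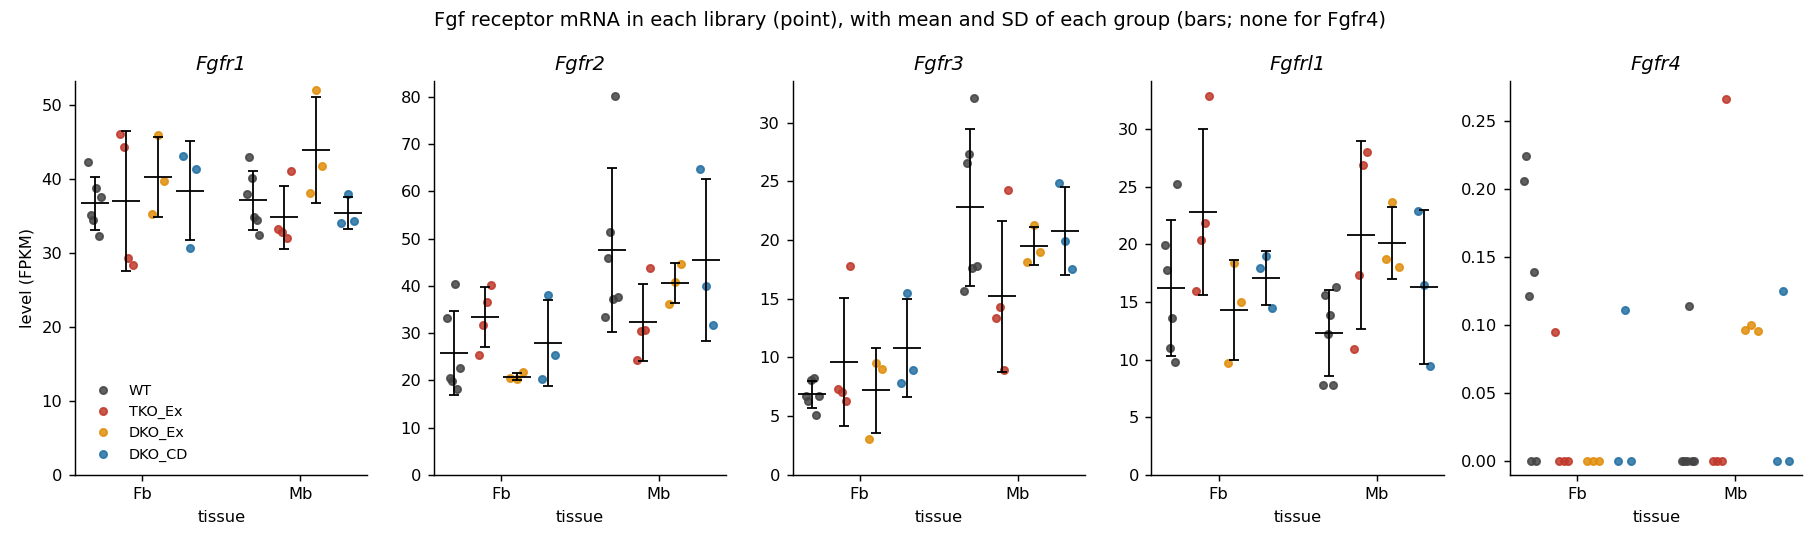
FPKM of each receptor (y axis, one panel per gene) in each of the 32 libraries, by tissue and genotype group (x axis), with points for libraries and bars for mean ± SD (for Fgfr4, points only). Fgfr3 in the 6 WT Mb libraries lies between 15.7 and 32.1 FPKM, above the 6 WT Fb libraries at 5.13 to 8.24 FPKM, whereas Fgfr1 spans 32.3 to 42.3 FPKM in the WT Fb and 32.4 to 42.9 FPKM in the WT Mb.

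The order of the levels differed between the tissues. FPKM are per transcript length, so levels can be set beside each other. In the WT Fb the mean FPKM ran from Fgfr1 through Fgfr2 and Fgfrl1 to Fgfr3 and Fgfr4. The ranges of Fgfr1 and Fgfr2 overlapped there, as did those of Fgfr2 and Fgfrl1, while Fgfr3 lay below Fgfrl1 and above Fgfr4 without overlap. In the WT Mb the order was Fgfr2, Fgfr1, Fgfr3, Fgfrl1 and Fgfr4, with overlap between Fgfr2 and Fgfr1 and between Fgfr3 and Fgfrl1. Fgfr2 was above Fgfr1 in 4 of 16 Fb libraries and in 9 of 16 Mb libraries. Those of the Fb were WT Fb 4 and, among the libraries that stand apart, TKO_Ex Fb 3, TKO_Ex Fb 4 and DKO_CD Fb 2. Fgfr3 was above Fgfrl1 in 0 of 16 Fb libraries and in 11 of 16 Mb libraries. Fgfr3 exceeded Fgfrl1 in 6 of 6 WT and 3 of 3 DKO_CD Mb libraries, but in 1 of 4 TKO_Ex and 1 of 3 DKO_Ex Mb libraries. Fgfr1 and Fgfr2 were each above Fgfr3 in all 32 libraries.

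The fragments behind these levels limit their precision, since the depth was only 1.96 to 3.24 M fragments per library (median 2.615 M), as estimated from the step between low values. Fgfr1 rested on about 302 to 810 fragments per library, Fgfr2 on 181 to 923, Fgfr3 on 36 to 354 and Fgfrl1 on 44 to 171, while Fgfr4 reached at most 2 fragments. The levels of Fgfr3 in the Fb and of Fgfrl1 therefore carry the most counting error among the tested receptors.

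In GRCm38 with the GENCODE M21 annotation, Fgfr1 (ENSMUSG00000031565) lies on chromosome 8 from 25513654 to 25575718 on the plus strand. It shares that chromosome with Cdh8 and Cdh11, and 73.4 Mb separate it from Cdh8. Fgfr2 (ENSMUSG00000030849) lies on chromosome 7 from 130162451 to 133123350 on the minus strand, a span of 2960.9 kb with 27 annotated transcripts. Fgfr3 (ENSMUSG00000054252, 33721674 to 33737068) and Fgfrl1 (ENSMUSG00000008090, 108692382 to 108706924) lie on the plus strand of chromosome 5. Fgfr4 (ENSMUSG00000005320) lies on the plus strand of chromosome 13 from 55152640 to 55168759. The values sum all transcripts of a gene, so the splice forms of Ig-like domain III, which decide which ligands Fgfr1, Fgfr2 and Fgfr3 bind, were not resolved.

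The promoter windows of Fgfr2 and Fgfr3 are shown because these receptors moved together across the libraries. Each window holds 250 bases before and 50 bases after a RefSeq transcription start (GRCm38.p6), read along the gene's strand. Capitals mark the E-box CANNTG in any form, a pattern that reads the same on both strands. Proneural factors such as Neurog1 and Neurog2 bind some of its forms and other factors bind others, so a marked stretch need not be a proneural site. The Fgfr2 window is chr7:130266759-130267058 on the minus strand and the Fgfr3 window is chr5:33721474-33721773 on the plus strand.
Fgfr2: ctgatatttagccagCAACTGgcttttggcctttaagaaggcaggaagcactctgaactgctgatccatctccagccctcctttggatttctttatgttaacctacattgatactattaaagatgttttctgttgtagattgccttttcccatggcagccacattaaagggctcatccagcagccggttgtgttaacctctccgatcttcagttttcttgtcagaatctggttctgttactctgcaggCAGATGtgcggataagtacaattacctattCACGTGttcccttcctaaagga
Fgfr3: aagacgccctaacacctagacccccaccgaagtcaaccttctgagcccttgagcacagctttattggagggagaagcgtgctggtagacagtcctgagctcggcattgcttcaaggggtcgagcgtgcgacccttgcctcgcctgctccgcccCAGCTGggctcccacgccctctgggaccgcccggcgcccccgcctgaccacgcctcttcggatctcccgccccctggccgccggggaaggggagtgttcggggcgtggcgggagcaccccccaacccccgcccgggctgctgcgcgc
The Fgfr2 window held 3 E-boxes and 4 CG pairs, and the Fgfr3 window held 1 E-box and 26 CG pairs. Of all 32851 windows of this length, 72.3% held at least 1 such E-box and 17.6% held 3 or more. The median window held 1 E-box and 7 CG pairs, and the windows of Fgfrl1 and Fgfr4 held 1 and 2 E-boxes. A second Fgfr3 window on the same strand, chr5:33722056-33722355, held 0 E-boxes. These matches are letters in a window and were not compared with binding data.

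To see which receptors differ between the compartments, the WT Mb was compared with the WT Fb. Fgfr3 and Fgfr2 were higher in the Mb, and no difference was called for Fgfr1 or Fgfrl1. A gene was called when its adjusted p (Benjamini-Hochberg, limma) over all genes tested was under 0.05. Thus 2 of 4 receptors were called, against 8.26% of all genes tested. Fgfr3 was between 5.13 and 8.24 FPKM in the WT Fb (median 6.68) and between 15.7 and 32.1 FPKM in the WT Mb (median 22.2), with no overlap between the tissues. Its log2 fold change on the log2(FPKM + 1) scale was 1.57 (standard error, SE, 0.18, 95% interval 1.19 to 1.95, limma adjusted p = 6.10e-05), a 2.97-fold higher FPKM + 1. Fgfr2 was between 18.2 and 40.3 FPKM in the WT Fb (median 21.6) and between 33.4 and 80.2 FPKM in the WT Mb (median 41.7). The tissues overlapped for Fgfr2, and 3 of the 6 WT Mb libraries were above all WT Fb libraries. Its log2 fold change was 0.85 (SE 0.23, 95% interval 0.35 to 1.35, limma adjusted p = 0.0367), or 1.81-fold. The Fgfr2 call was close to the threshold. It was lost with no filter on low values (limma adjusted p = 0.0674) and with same-numbered libraries fitted as a block (limma adjusted p = 0.117). Of the 12 fits that left out 1 library, 7 also lost it. Without WT Mb 5, the library with the highest Fgfr2 (80.2 FPKM) and Fgfr3 (32.1 FPKM), Fgfr2 had a log2 fold change of 0.69 and an adjusted p of 0.0628, while Fgfr3 kept 1.47 with an adjusted p of 0.000119.

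Fgfr1 was between 32.3 and 42.3 FPKM in the WT Fb (median 36.3) and between 32.4 and 42.9 FPKM in the WT Mb (median 36.4). The tissues covered nearly the same range, and the log2 fold change was 0.01 (SE 0.09, 95% interval -0.18 to 0.20, limma adjusted p = 0.963). Fgfrl1 was between 9.75 and 25.2 FPKM in the WT Fb (median 15.7) and between 7.79 and 16.3 FPKM in the WT Mb (median 13). Its groups overlapped, with a log2 fold change of -0.36 (SE 0.24, 95% interval -0.88 to 0.16, limma adjusted p = 0.459). An interval this wide does not show that Fgfrl1 is alike in the tissues. When each library was left out the value ran from -0.48 to -0.22, the latter without WT Fb 6.

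With all 32 libraries in one fit and genotype as a covariate, the same 2 of 4 receptors were called, against 17.0% of all genes. The log2 fold change of the Mb over the Fb was 1.19 for Fgfr3 (SE 0.16, 95% interval 0.86 to 1.53, limma adjusted p = 9.46e-07) and 0.60 for Fgfr2 (SE 0.14, 95% interval 0.31 to 0.89, limma adjusted p = 0.00221). It was -0.01 for Fgfr1 (95% interval -0.15 to 0.13) and -0.11 for Fgfrl1 (95% interval -0.43 to 0.21). This fit contains the WT libraries and is not independent of the WT comparison. Without the 5 libraries that stand apart, the values were 1.35 for Fgfr3 and 0.69 for Fgfr2.

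**Figure D2:**
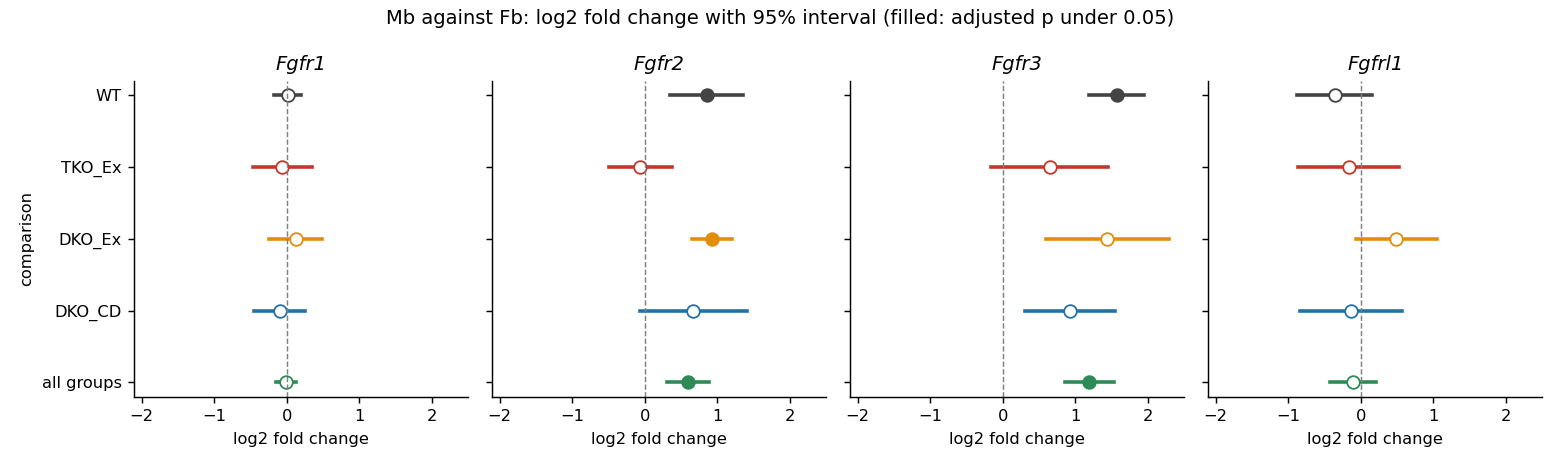
Log2 fold change of the Mb over the Fb on the log2(FPKM + 1) scale (x axis) for each tested receptor in WT, each mutant group and all groups together, with 95% intervals; filled points have a limma adjusted p under 0.05. Fgfr3 in WT lies at 1.57 and Fgfr2 at 0.85, while Fgfr1 lies at 0.01, and in TKO_Ex Fgfr2 lies at -0.06.

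The receptor pool can also be read as shares of its sum. Summed over the family, receptor FPKM was 85.7 ± 15.1 (SD, n = 6) in the WT Fb and 120 ± 22.7 (SD, n = 6) in the WT Mb. In the WT Fb, Fgfr1 made up 43.4% ± 4.07 of this sum, Fgfr2 29.6% ± 5.77, Fgfrl1 18.7% ± 5.36 and Fgfr3 8.1% ± 1.51. In the WT Mb, Fgfr2 made up 38.9% ± 6.56, Fgfr1 31.7% ± 5.76, Fgfr3 18.8% ± 2.09 and Fgfrl1 10.6% ± 3.82. In WT, Fgfr1 was thus the largest part of the Fb pool and Fgfr2 the largest of the Mb pool on average. Without WT Mb 5, where Fgfr2 took 51.9%, Fgfr2 made up 36.3% ± 1.68 and Fgfr1 33.6% ± 3.78 of the Mb pool (SD, n = 5). In the TKO_Ex Mb, Fgfr1 made up 34.4% ± 4.51, Fgfr2 31.2% ± 1.03, Fgfrl1 19.8% ± 5.8 and Fgfr3 14.6% ± 3.79 (SD, n = 4). In the DKO_Ex Mb, Fgfr1 made up 35.2% ± 2.12, Fgfr2 32.8% ± 3.27, Fgfrl1 16.2% ± 1.43 and Fgfr3 15.7% ± 0.516 (SD, n = 3), so that Fgfr1 had the largest mean share in both groups. In the DKO_CD Mb, Fgfr2 made up 37.7% ± 5.61 and Fgfr1 31.1% ± 7.08 (SD, n = 3), but without DKO_CD Mb 1, where they took 44.2% and 23.2%, their means were 34.5% and 35% (n = 2). By record, the values of DKO_Ex and DKO_CD change places. The shares are sums to a whole and move against each other, and no test was run on them.

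**Figure D3:**
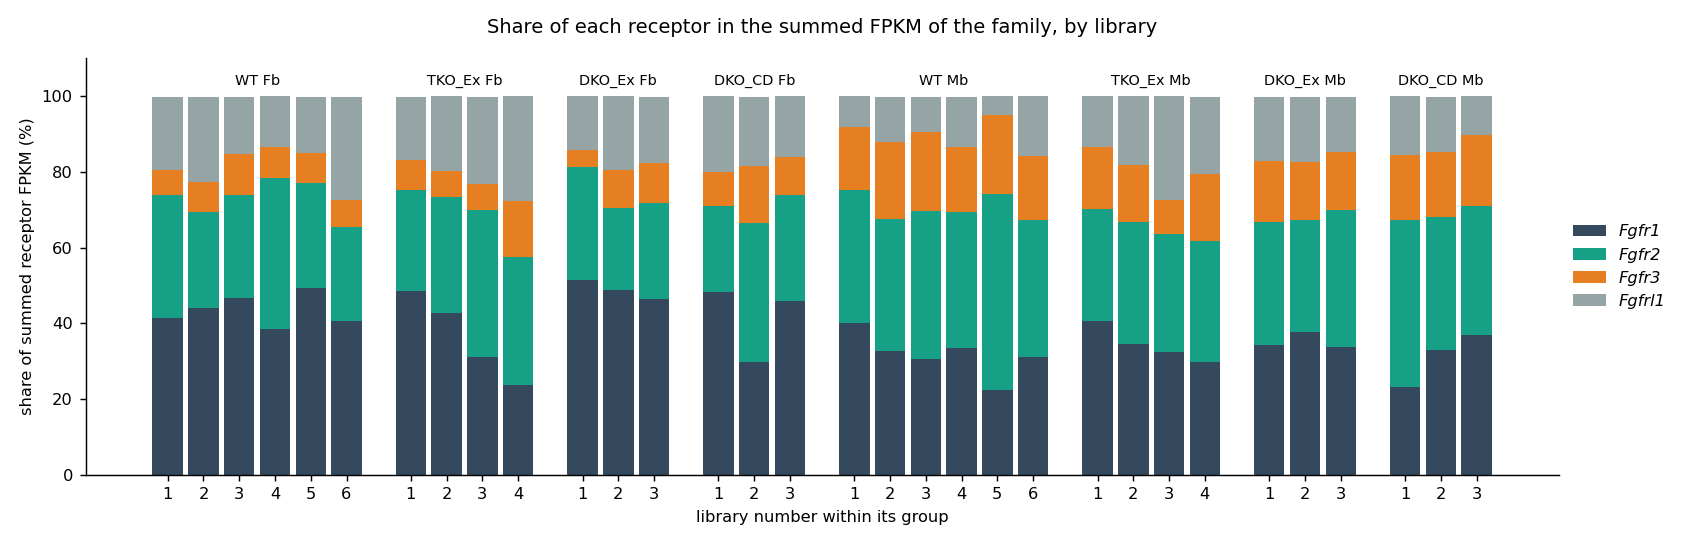
Share of each receptor in the summed receptor FPKM (y axis, percent) in every library (x axis, by tissue and genotype group), as stacked bars. Fgfr3 takes 6.53% to 10.9% of the pool in the WT Fb and 16.5% to 20.8% in the WT Mb.

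The Mb and Fb were then compared within each mutant group. In TKO_Ex, 0 of 4 receptors passed the threshold and 0 had an unadjusted p under 0.05 (limma), against 2.89% of genes called and 12.6% with an unadjusted p under 0.05. Fgfr3 was at 7.35, 7.02, 6.31 and 17.8 FPKM in the TKO_Ex Fb and at 13.4, 14.3, 8.95 and 24.3 FPKM in the TKO_Ex Mb, for numbers 1 to 4. The groups overlapped because of Fb number 4, and the log2 fold change was 0.65 (SE 0.36, 95% interval -0.16 to 1.45, limma adjusted p = 0.539). Without that library it was 0.96 (limma adjusted p = 0.169), and without TKO_Ex Mb 4 it was 0.41 (limma adjusted p = 0.756). Fgfr2 was at 25.3, 31.7, 36.6 and 40.2 FPKM in the TKO_Ex Fb and at 24.4, 30.4, 30.6 and 43.7 FPKM in the TKO_Ex Mb. The tissues covered the same range, with a log2 fold change of -0.06 (SE 0.20, 95% interval -0.50 to 0.38, limma adjusted p = 0.954).

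In DKO_Ex, 1 of 4 receptors was called, against 2.58% of genes. Fgfr2 read 20.5, 20.3 and 21.7 FPKM in the Fb against 36.2, 40.9 and 44.6 FPKM in the Mb. There was no overlap, and Fgfr2 was higher in the Mb by a log2 fold change of 0.93 (SE 0.12, 95% interval 0.65 to 1.20, limma adjusted p = 0.0100), or 1.90-fold. Fgfr3 read 3.04, 9.55 and 9.04 FPKM in the Fb against 18.1, 21.3 and 19 FPKM in the Mb. It did not overlap either, but with its spread in the Fb the log2 fold change of 1.44 (SE 0.36, 95% interval 0.59 to 2.29) had a limma adjusted p of 0.110. Even Fgfr4 did not overlap, at 0.0957 to 0.1 FPKM in the Mb against 0 in the Fb. How many of all genes separate like this was not counted, here or in the other comparisons. Without Fb number 1 the log2 fold change of Fgfr3 was 0.99 with an adjusted p of 0.0396, and without Mb number 2 the adjusted p of Fgfr2 was 0.0501. In DKO_CD, 0 of 4 receptors were called by limma and 1 had an unadjusted p under 0.05, against 0.507% of genes called and 10.1% with an unadjusted p under 0.05. Fgfr3 read 7.84, 15.5 and 8.93 FPKM in the Fb against 24.9, 19.9 and 17.5 FPKM in the Mb. The groups did not overlap, with a log2 fold change of 0.93 (SE 0.26, 95% interval 0.31 to 1.55, limma adjusted p = 0.273). Without Fb number 2 it was 1.20 with an adjusted p of 0.0827. Fgfr2 read 20.3, 38.1 and 25.3 FPKM in the Fb against 64.7, 39.9 and 31.8 FPKM in the Mb, and the tissues overlapped (log2 fold change 0.67, 95% interval -0.07 to 1.40, limma adjusted p = 0.546). Without Fb number 2 this was 0.91, and without Mb number 1 it was 0.39. With the double knockouts grouped by record, 0 receptors were called in DKO_Ex and 1 in DKO_CD.

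Each mutant group was next compared with WT of the same tissue, the contrast the study was made for. None of the 24 differences over the 4 tested receptors was called by limma, 4 had an unadjusted p under 0.05, and the lowest adjusted p was 0.545. Of all genes, 5.46% to 8.66% had an unadjusted p under 0.05 in these comparisons. All log2 fold changes lay between -0.59 and 0.72. Few genes were called in these comparisons at all, so that 0 receptors stood against 0.0898%, 0.0903% and 0.0375% of genes in the Mb of TKO_Ex, DKO_Ex and DKO_CD and against 0.0603%, 0.0759% and 0.0378% in the Fb.

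The largest differences from WT were in Fgfrl1 of the Mb. Its level was 10.9, 17.3, 26.9 and 28 FPKM in the TKO_Ex Mb, 18.7, 23.7 and 18 FPKM in the DKO_Ex Mb and 22.9, 16.5 and 9.46 FPKM in the DKO_CD Mb, against 7.79 to 16.3 FPKM in WT (median 13). The 3 DKO_Ex libraries and 3 of the 4 TKO_Ex libraries were above all WT libraries, but the share of all genes that separate in this way was not counted. The log2 fold change over WT came to 0.72 in DKO_Ex (SE 0.24, 95% interval 0.18 to 1.25, limma adjusted p = 0.793). It was 0.68 in TKO_Ex (SE 0.29, 95% interval 0.05 to 1.31, limma adjusted p = 0.578) and 0.36 in DKO_CD (SE 0.30, 95% interval -0.31 to 1.03, limma adjusted p = 0.899). These 3 comparisons share the WT libraries, and none passed the threshold. Without WT Mb 5 and TKO_Ex 3 the TKO_Ex value was 0.42 (limma adjusted p = 0.863). With the double knockouts grouped by record, the DKO_Ex value was 0.36 and the DKO_CD value 0.72. By heading, the DKO_CD value was 0.08 without DKO_CD Mb 1 and 0.68 without DKO_CD Mb 3.

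Fgfr2 and Fgfr3 had values below WT in the TKO_Ex Mb. Of the TKO_Ex Mb libraries, 3 of 4 were below all WT libraries for Fgfr2 and 3 of 4 for Fgfr3. The log2 fold change was -0.51 for Fgfr2 (SE 0.23, 95% interval -1.03 to 0.00, limma adjusted p = 0.596). It was -0.59 for Fgfr3 (SE 0.27, 95% interval -1.17 to -0.01, limma adjusted p = 0.591). Neither passed the threshold, and without WT Mb 5 and TKO_Ex 3 the values were -0.34 and -0.28. When each library was left out they ran from -0.67 to -0.35 and from -0.83 to -0.38, the lowest of both without TKO_Ex Mb 4, whose early neuron markers summed to 79.8 FPKM, while those of numbers 1 to 3 summed to between 40.9 and 45.3 FPKM. The depth of the TKO_Ex Mb libraries, 1.96 to 2.33 M fragments, was below that of the WT Mb libraries, 2.41 to 2.96 M, and its part in the result was not tested. The DKO_Ex Mb libraries, at 3.09 to 3.23 M, were deeper than all WT Mb libraries and than the DKO_Ex Fb libraries (2.33 to 2.77 M), and the part of depth in the Fgfrl1 and Fgfr2 values of DKO_Ex was not tested either. Fgfr1 was at 38.1, 52 and 41.7 FPKM in the DKO_Ex Mb, where 1 library exceeded all WT libraries (log2 fold change 0.23, standard error 0.13, 95% interval -0.05 to 0.51, limma adjusted p = 0.904). Without that library, DKO_Ex Mb 2, the value was 0.11.

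In the Fb, the 4 TKO_Ex libraries lay within the WT range for Fgfr2, at 25.3 to 40.2 FPKM against 18.2 to 40.3 FPKM, with a log2 fold change of 0.40 (SE 0.22, 95% interval -0.09 to 0.90, limma adjusted p = 0.651). Fgfrl1 was at 15.9 to 32.9 FPKM in the TKO_Ex Fb against 9.75 to 25.2 FPKM in WT, with 1 library above all WT libraries (log2 fold change 0.49, standard error 0.27, 95% interval -0.10 to 1.07, limma adjusted p = 0.645). That library was TKO_Ex Fb 4, which stands apart, and without it the value was 0.30. Fgfr3 had a log2 fold change of 0.54 in the DKO_CD Fb (SE 0.21, 95% interval 0.08 to 1.01, limma adjusted p = 0.545). It did not pass the threshold, and without DKO_CD Fb 2 it was 0.27. The cranial mesenchyme marker sum was 144 to 199 FPKM in the TKO_Ex Fb and 155 to 179 FPKM in the DKO_Ex Fb, below the 212 to 242 FPKM of the WT Fb, and the neuroepithelium sum was 442 to 460 FPKM in the TKO_Ex Fb against 329 to 438 FPKM in the WT Fb. Their part in the Fb values was not tested.

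**Figure D4:**
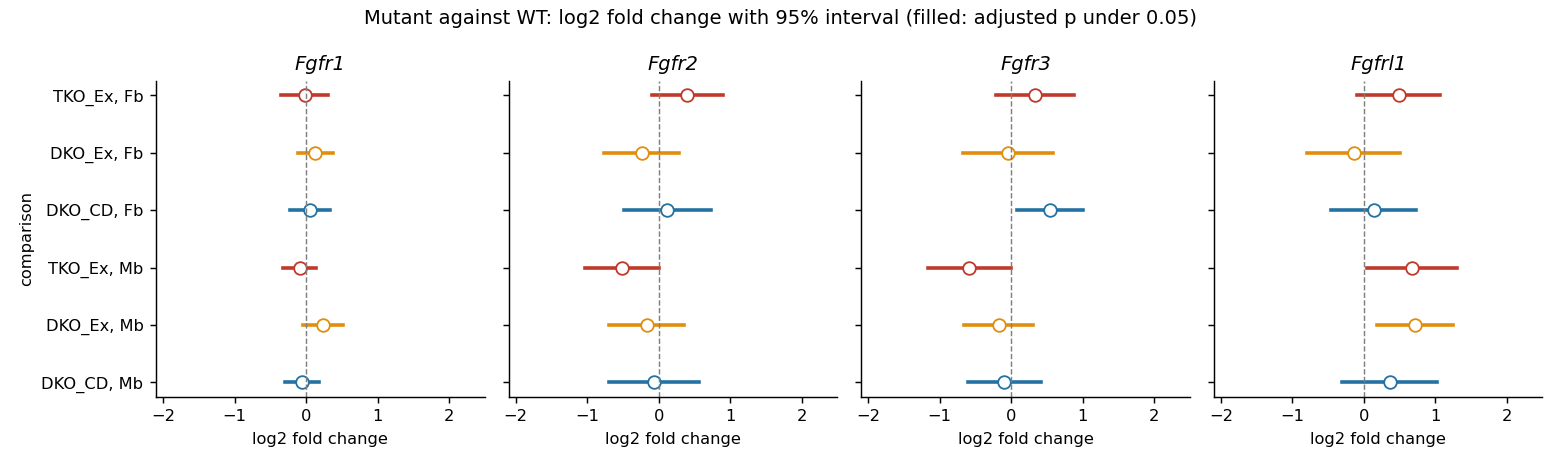
Log2 fold change of each mutant group over WT on the log2(FPKM + 1) scale (x axis) for each tested receptor, in the Mb and in the Fb, with 95% intervals. No point has a limma adjusted p under 0.05; the values run from -0.59 (Fgfr3, TKO_Ex Mb) to 0.72 (Fgfrl1, DKO_Ex Mb).

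Whether the Mb minus Fb difference of a receptor was changed in a mutant group was tested as an interaction. None of the 12 interactions was called by limma, 3 had an unadjusted p under 0.05, and the lowest adjusted p was 0.734. Few genes were called in these tests (0.0149% in TKO_Ex, 0.00% in DKO_Ex and 0.00746% in DKO_CD), and 873 (6.5%), 518 (3.88%) and 647 (4.83%) genes had an unadjusted p under 0.05. The Mb minus Fb log2 difference in TKO_Ex, minus that in WT, was -0.91 for Fgfr2 (SE 0.34, 95% interval -1.63 to -0.20, limma adjusted p = 0.734) and -0.92 for Fgfr3 (SE 0.38, 95% interval -1.72 to -0.12, limma adjusted p = 0.745). Without WT Mb 5 and TKO_Ex 3 these were -0.69 and -0.75, and without TKO_Ex Fb 4 the value of Fgfr3 was -0.61. For Fgfrl1 in DKO_Ex the interaction was 0.85 (SE 0.40, 95% interval 0.01 to 1.70, limma adjusted p = 1), and 0.22 with the double knockouts grouped by record. For Fgfr3 in DKO_CD it was -0.64 (SE 0.32, 95% interval -1.32 to 0.04, limma adjusted p = 0.990), but -0.13 by record and -0.37 without DKO_CD Fb 2. The tissue difference of Fgfr2 in WT and its absence among the calls of TKO_Ex are thus not shown to differ.

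The mutant groups were also compared with each other, TKO_Ex with DKO_Ex and DKO_Ex with DKO_CD. None of the 16 differences was called by limma, 2 had an unadjusted p under 0.05 (5.07% to 7.46% of all genes), and the lowest adjusted p was 0.668. The shares of genes called were 0.127% (Mb) and 0.0301% (Fb) for TKO_Ex against DKO_Ex and 0.0450% (Mb) and 0.00753% (Fb) for DKO_Ex against DKO_CD. In the Fb, Fgfr2 was at 25.3 to 40.2 FPKM in TKO_Ex and at 20.3 to 21.7 FPKM in DKO_Ex, without overlap, a separation not counted over all genes. Its log2 fold change was 0.64 (SE 0.16, 95% interval 0.26 to 1.02, limma adjusted p = 0.894), and 0.28 with the double knockouts grouped by record. In the Mb, Fgfr1 had a log2 fold change of -0.33 between TKO_Ex and DKO_Ex (SE 0.14, limma adjusted p = 0.668). By record this was -0.03, and without DKO_Ex Mb 2 it was -0.20.

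Across the 32 libraries, Fgfr2 and Fgfr3 moved together. Pearson's r of log2(FPKM + 1) between Fgfr2 and Fgfr3 was 0.80 over the 32 libraries, 0.84 over the 16 Mb libraries and 0.51 over the 16 Fb libraries. Without the 5 libraries that stand apart it was 0.82 over 27 libraries and 0.88 in the Mb, but 0.23 in the Fb. Between Fgfr1 and Fgfr2 it was -0.06 over all libraries (0.21 in the Mb, -0.30 in the Fb), and between Fgfr1 and Fgfr3 it was 0.03 (0.44 and -0.19). Without those 5 libraries the Fb values of these pairs turned to 0.40 and 0.54. Fgfrl1 had 0.04 with Fgfr3 and 0.11 with Fgfr2 over all libraries, 0.58 and 0.54 within the Fb and -0.15 and -0.03 within the Mb. Without those 5 libraries these were 0.42 and 0.30 in the Fb and 0.46 and 0.52 in the Mb, so that the Mb signs turned. These values describe the libraries. The values of a library share one depth and one dissection, Fb and Mb libraries share groups, and the 32 points include the difference between the tissues.

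Markers of early neurons moved with Fgfr3 and Fgfr2 over both tissues and, within the Fb, with Fgfrl1. Of this list 5 of 6 genes were in the files, all 5 were higher in the WT Mb than in the WT Fb, and the most abundant was Stmn2 with a mean of 13.4 FPKM. Their sum came to 11.1 ± 3.79 FPKM (SD, n = 6) in the WT Fb but to 65.5 ± 18.5 FPKM (SD, n = 6) in the WT Mb. Over the 32 libraries the correlation with this sum was 0.93 for Fgfr3 (0.77 in the Mb, 0.86 in the Fb) and 0.79 for Fgfr2 (0.79 and 0.67). It was 0.00 for Fgfr1 and 0.12 for Fgfrl1, although Fgfrl1 reached 0.74 within the Fb. Without the 5 libraries that stand apart it was 0.95 for Fgfr3 (0.78 in the Mb, 0.67 in the Fb) and 0.83 for Fgfr2 (0.77 and 0.51), and for Fgfr1 it was 0.03 over the 27 libraries but 0.77 in the Fb. For Fgfrl1 it was then 0.57 in the Mb and 0.75 in the Fb, so that within the Fb Fgfr1 and Fgfrl1 were above both Fgfr3 and Fgfr2. The neuroepithelium markers, of which Nes and Hes5 were higher and Pax6 lower in the WT Mb, had a correlation of 0.74 with Fgfr3 (0.72 in the Mb, 0.33 in the Fb) and of 0.69 with Fgfr2 (0.71 and 0.22). Without those libraries the Fb values were 0.36 and 0.13. Of the lists of cells outside the neural tube, surface ectoderm and neural crest ran the other way over both tissues. Fgfr3 and Fgfr2 had -0.61 and -0.49 with the surface ectoderm sum and -0.59 and -0.46 with the neural crest sum. With cranial mesenchyme they had -0.33 and -0.31 and with endothelium -0.21 and -0.22, but with red cells 0.19 and 0.24. Within a tissue the opposite sign did not hold throughout, since Fgfr3 had -0.24 in the Mb and 0.58 in the Fb with surface ectoderm. Without the libraries that stand apart these were -0.26 and 0.13. From the WT Fb to the WT Mb the mean neural crest sum went from 74.9 to 44.4 FPKM (8 genes, led by Snai1) and that of cranial mesenchyme from 227 to 157 FPKM (11 genes, led by Col3a1). The libraries TKO_Ex Fb 4 and DKO_CD Fb 2, with the highest Fgfr3 of the Fb (17.8 and 15.5 FPKM), also had its highest early neuron sums (35.5 and 34.3 FPKM). In the TKO_Ex Mb the sum was 52.8 ± 18.1 FPKM (SD, n = 4). The part of early neurons and of these other cells in the receptor differences was not tested.

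**Figure D5:**
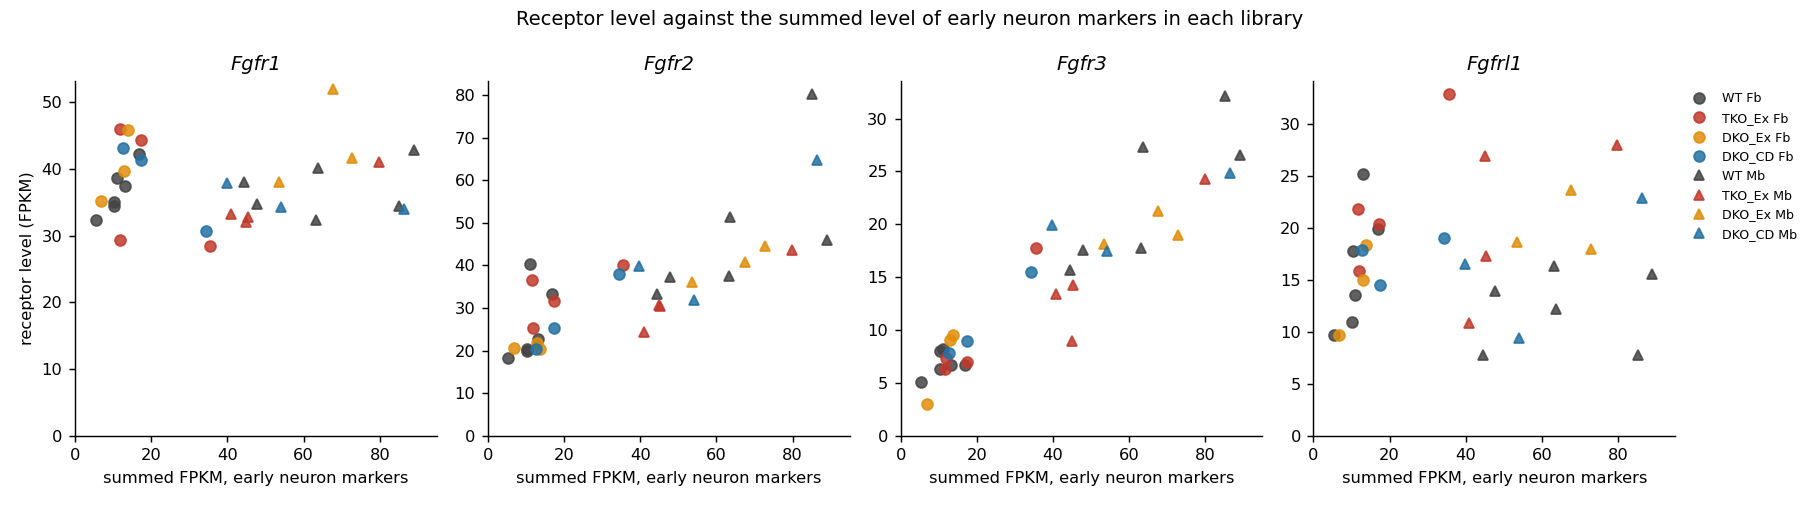
Receptor FPKM (y axis, one panel per tested receptor) against the summed FPKM of 5 early neuron markers (x axis) in each of the 32 libraries, by tissue and genotype group. Over all 32 libraries, which include the difference between the tissues, r is 0.93 for Fgfr3 and 0.00 for Fgfr1. Within the Fb and without the libraries that stand apart, r is 0.67 for Fgfr3, 0.51 for Fgfr2, 0.77 for Fgfr1 and 0.75 for Fgfrl1.

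Regional markers moved with some of the receptors within a tissue. Over the 16 Mb libraries, the summed Mb and isthmus markers had a correlation of -0.76 with Fgfr2 and of -0.68 with Fgfr3, and the hindbrain markers had -0.81 and -0.61. Without WT Mb 5 and TKO_Ex Mb 3 these were -0.52, -0.55, -0.68 and -0.50. Fgfr1 had 0.07 and 0.06 (0.01 and 0.00 without them). Fgfrl1 had 0.30 and 0.03, but -0.23 and -0.44 without them. With the forebrain markers the Mb libraries had positive values, 0.68 for Fgfr2, 0.58 for Fgfr3, 0.24 for Fgfr1 and 0.22 for Fgfrl1. Without WT Mb 5 and TKO_Ex Mb 3 these were 0.58, 0.49, 0.29 and 0.62. WT Mb 5, with the lowest Mb marker sum, had the highest Fgfr2 and Fgfr3. Within the Fb, Fgfr1 had a correlation of 0.86 with the summed forebrain markers, and of 0.77 without the 3 Fb libraries that stand apart. The part of the dissected region in these values was not tested.

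The genes whose pattern was most like that of each receptor were ranked by Pearson's r of log2(FPKM + 1) over the 32 libraries, among the 9149 genes averaging 5 FPKM or more. For Fgfr3 the 5 leading genes were Neurog1 (0.92), Tspan18, Insm1, Jam2 and Stmn2 (0.90 each). For Fgfr2 they were Vangl2 (0.82), Neurog2 (0.81), Neurog1 (0.80), Olfm1 and Kif21a (0.79 each). Neurog1, Neurog2 and Insm1 are transcription factors of neurogenesis, and Vangl2 is a planar cell polarity gene required for neural tube closure. Neurog1, Neurog2 and Stmn2 belong to the early neuron list. For Fgfr1 they were Tmem201 (0.78), Mllt1 (0.75), Gcn1l1 (0.73), Crebbp and Gpc1 (0.71 each), of which Gpc1 encodes a heparan sulphate proteoglycan. For Fgfrl1 they were Ccdc120 (0.67), Casd1 (0.64), Pus10 (0.60), Fam149b and Raver2 (0.59 each). The 32 libraries include the difference between the tissues. Within the Mb and the Fb, r was 0.54 to 0.89 and 0.55 to 0.90 for the genes of Fgfr3. It was 0.63 to 0.83 and 0.42 to 0.78 for those of Fgfr2. For Fgfr1 it was 0.53 to 0.88 and 0.58 to 0.92, and for Fgfrl1 0.45 to 0.62 and 0.58 to 0.77. The ranking was not repeated without the libraries that stand apart.

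The partners of the receptors in the pathway were read from lists of ligands, receptor partners, heparan sulphate genes, the kinase cascade, feedback inhibitors and targets, and splicing regulators. Of 106 listed genes 105 were in the files, and 86 were tested between the WT tissues. In the WT Mb 12 were higher and 7 lower than in the WT Fb, which is 22.1% of those tested against 8.26% of all genes. With all groups, 18 were higher and 12 lower (34.9% against 17.0%). In the comparisons of mutants with WT, with each other and in the interactions, 0 of the listed genes were called by limma, as for the receptors. With all 8 groups in one fit 1 was called, Ccnd1 in the DKO_CD Fb against WT, with a log2 fold change of 0.45 and, in the comparison on its own, a limma adjusted p of 0.204. It is named for that call, after its values were seen. The median log2 fold change over WT in the Mb was 0.75 in TKO_Ex, 0.84 in DKO_Ex and 0.46 in DKO_CD for the 7, 6 and 5 ligands tested, and 0.31, 0.27 and 0.12 for the 18 feedback inhibitors and targets, against 0.017, 0.028 and 0.017 for all genes. Without WT Mb 5, which all 3 comparisons share, the medians were 0.48, 0.32 and 0.02 for the ligands and 0.23, 0.13 and -0.06 for the inhibitors and targets. By record, those of DKO_Ex and DKO_CD change places.

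Among the ligands, 7 were tested in WT, 1 was higher and 1 lower. Fgf15 averaged 16.7 ± 3.66 FPKM in the WT Fb and, higher, 29.8 ± 5.26 FPKM in the Mb (SD, n = 6 each), with a log2 fold change of 0.81 (SE 0.15, limma adjusted p = 0.00316). Fgf10, a ligand of the epithelial forms of Fgfr2, was lower in the Mb at 0.496 ± 0.228 FPKM than in the Fb at 1.69 ± 0.737 FPKM (limma adjusted p = 0.0316). Fgf8, the signal of the isthmus and the anterior neural ridge, was at 14.2 ± 6.2 FPKM in the WT Fb and at 12.7 ± 8.78 FPKM in the WT Mb and was not called. Fgf18 was not called in WT. With all groups together its log2 fold change was 1.50 (SE 0.22, limma adjusted p = 4.20e-06).

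Of the receptor partners 8 were tested, and 3 were higher in the WT Mb. Flrt1 and Flrt2, transmembrane proteins that bind FGF receptors, were at 2.82 ± 0.76 and 10.8 ± 1.49 FPKM in the WT Mb and at 0.416 ± 0.219 and 6.67 ± 1.08 FPKM in the WT Fb. Ncam1, an adhesion molecule that binds FGF receptors, had a log2 fold change of 0.72 (SE 0.13, limma adjusted p = 0.00215). Cdh2, the type I cadherin of the neuroepithelium and a partner of Fgfr1, was at 56.7 ± 4.67 FPKM in the WT Fb and at 63.5 ± 5.19 FPKM in the WT Mb and was not called. The co-receptors Kl and Klb of the endocrine FGFs were under the minimum and were not tested.

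Of 19 heparan sulphate genes, 4 were higher and 3 lower in the WT Mb. The enzymes Ext1 and Hs6st1 were higher and Hs6st2 was lower. Among the core proteins, Gpc2 and Sdc3 were higher in the Mb, with log2 fold changes of 0.52 and 0.61. Gpc3 and Gpc4 were lower, with log2 fold changes of -0.86 and -1.44 (limma adjusted p = 8.53e-05 and 0.000141). Gpc3 was the most abundant of the list, at 118 ± 10.3 FPKM in the WT Fb and 65.3 ± 10 FPKM in the WT Mb.

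Of 18 feedback inhibitors and targets, 3 were higher and 2 lower in the WT Mb. Cnpy1, a gene of the isthmus known to promote FGF signalling through the receptor in fish, was at 0.488 ± 0.39 FPKM in the WT Fb and 42.8 ± 23.6 FPKM in the WT Mb. Ccnd1, a cyclin of the G1 phase, was at 85.1 ± 7.97 FPKM in the WT Fb and, higher, at 117 ± 11.2 FPKM in the WT Mb (log2 fold change 0.45, standard error 0.08, limma adjusted p = 0.00287). Spred2 was the remaining higher gene, and Myc and Ier2 were lower. The inhibitors Spry1 and Spry2 were at 15.4 ± 7.66 and 18.7 ± 13.7 FPKM in the WT Mb and were not called in WT, although both were called higher in the Mb within TKO_Ex, as was Il17rd, another inhibitor. None of the 3 was called in DKO_Ex, in DKO_CD or with all groups together, nor within TKO_Ex without the TKO_Ex 3 libraries, where the listed genes called fell from 13 to 4. Esrp1, an epithelial splicing regulator that favours the IIIb form of the receptors, was lower in the Mb (0.803 ± 0.42 against 5.37 ± 1.62 FPKM, log2 fold change -1.82, limma adjusted p = 8.38e-05). Esrp1 also belongs to the surface ectoderm markers, of which 7 of 9 tested were lower in the WT Mb, and the part of ectoderm in its difference was not tested.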

How the data were processed

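Total RNA from Fb and Mb tissue was made into directional libraries. Per the labels, the authors aligned reads to GRCm38 (mm10) with TopHat2 and deposited Cufflinks FPKM per Ensembl gene, which are normalized to gene length and mapped fragments. Tool versions and the annotation they used are not given in the sources used here. The authors also used HTSeq and DESeq2, whose counts were not used here. Replicates were not pooled, and no source says that same-numbered libraries share an embryo. The main fits treated libraries as independent, so p-values measure the spread between these libraries.

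Of 49 identifiers listed more than once, none a receptor, 12 identical rows were dropped and the other values summed. GENCODE M21 supplied names and positions for 48218 of 48576 identifiers. Promoter windows were taken at RefSeq starts for GRCm38.p6, and the set of windows used here held none for Fgfr1, although RefSeq lists that gene. Depth was estimated from what 1 fragment is worth in 771 genes with a single transcript of 4000 bp or longer, read from their low values. In each library 75.8% to 84.9% of those values lay within 0.1 of a whole number of fragments. Counts were not recovered from them.

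The tests used limma 3.58.1 (R 4.3.3; lmFit, then eBayes with a mean-variance trend) on log2(FPKM + 1), unscaled, over all genes averaging 1 FPKM or more in the libraries compared. The test was checked on simulated data. Fold changes on this scale understate those of low genes, and a value of 0 can be a failed estimate. Tables and figures were made with Python 3.11.15, pandas 2.3.3 and matplotlib 3.10.9. The members, the pathway and marker lists and the tests were chosen with earlier results of these data known. The receptors were named in every comparison whatever their values, the pathway genes of each list when called between the WT tissues (at most 4 in each direction by value) or among the 2 most abundant, and the 5 genes most like each receptor by correlation. The kinase cascade is not reported here gene by gene. Fgf8, Fgf18, Cdh2, Spry1, Spry2, Il17rd, Kl and Klb were named for their roles, with their values known. The alternatives were pseudocounts of 0.1 and 5, no filter, other scalings, no trend, all groups in one fit, the replicate block, the double knockouts by record and leaving out each library. Leaving out the libraries that stand apart was chosen after seeing the data.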

Additional observations from a re-analysis of the deposited data

Results flagged for a closer look

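Each tested receptor was examined for a library far from the others of its group, in the 16 combinations of receptor and group that had 4 or more libraries. A library stood apart in 2 of them, and chance alone gives about 1 in 20. Fgfr1 in TKO_Ex Mb number 4 was at 41.1 FPKM, with the nearest of the other 3 libraries at 33.2 FPKM. Fgfr3 in TKO_Ex Fb number 4 was at 17.8 FPKM, with the nearest at 7.35 FPKM. The Fb library is the one with the high surface ectoderm and early neuron sums. Groups of 3 libraries, which include all double knockouts, were not examined in this way.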

How the results depend on the processing

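The count of receptors called stayed the same in every alternative run for 15 of the 18 comparisons. In the WT Mb against the WT Fb, 2 receptors were called, but 1 with no filter, 1 with the replicate block and 1 to 2 when each library was left out. Fgfr3 was called in all of them (log2 fold change 1.20 to 1.69) and Fgfr2 was the call lost (0.69 to 0.99, limma adjusted p 0.00752 to 0.117; 0.0674 with no filter and 0.117 with the replicate block). It was lost without WT Fb 2, 3, 5 or 6 and without WT Mb 2, 3 or 5. In DKO_Ex, 1 receptor was called between Mb and Fb, but 0 by record and 0 to 2 when each library was left out, and DKO_CD had 1 in place of 0 by record. With all 8 groups in one fit the DKO_Ex call moved from Fgfr2 (adjusted p = 0.0863) to Fgfr3 (0.0137). With all groups, Fgfr3 stayed at 0.91 to 1.35 and Fgfr2 at 0.54 to 0.69, both called throughout. The cause of the lost calls was not tested.

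Signs turned only in differences that were not called. By record, Fgfr1 in the DKO_Ex Mb against WT was -0.06 and Fgfr3 in the DKO_CD Fb against WT was -0.04. Fgfr2 in the Mb against the Fb of TKO_Ex was 0.003 without TKO_Ex 3 and -0.21 to 0.06 when each library was left out. Fgfr1 in the Mb against the Fb was -0.03 to 0.05 in WT and -0.03 to 0.02 with all groups when each library was left out. Of the pathway genes named as called between the WT tissues, Fgf10 lost its call in 8 of 18 alternatives. Of 21 alternatives Spred2 lost it in 13, Ext1, Hs6st2 and Myc in 12 each, Hs6st1 in 11 and Sdc3 and Ier2 in 7 each. Fgf15, Flrt2, Ncam1, Gpc2, Gpc3, Gpc4 and Ccnd1 kept theirs in all 21, and Flrt1, Cnpy1 and Esrp1 in the 20 run for them. Between Mb and Fb the number of all genes called was 1102 in WT (780 to 1317 over the alternatives), 389 in TKO_Ex (163 to 695), 344 in DKO_Ex (68 to 562) and 68 in DKO_CD (26 to 386), and that of listed pathway genes was 19 (10 to 21), 13 (4 to 13), 7 (1 to 12) and 1 (0 to 8). In the 13 comparisons that involve genotype, 0 to 17 genes of all those tested were called, and 0 to 52 over the alternatives.

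Same-numbered Fb and Mb libraries were weakly alike (r 0.01 to 0.14 over genes), but 14 of 16 were most like their own number. Mutant libraries were most like the WT library of their own number in 0 of 20 pairs. The numbers thus appear to pair the Fb and Mb libraries, which the main fits do not take up. The replicate block, which does, was kept as an alternative and removed the Fgfr2 call in WT. It changed no other receptor call. The depth limits Fgfr3 in the Fb and Fgfrl1 most.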
